A study of Mus musculus with 6 samples.

Results

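The genes described here are 10 of the 24532 genes in a bulk RNA-seq gene table of newborn mouse kidney and ureter. They are the table entries with the symbols Actc1, Tnnt2, Tnni3, Myh6, Myh7, Mybpc3, Myl4, Myl7, Nppa and Bmp10, which code for proteins of the heart muscle sarcomere or for hormones and ligands made in the atrium. All 10 symbols were found in the table. The list was chosen by the measured difference between the Ahnak KO and WT ureter libraries, in which several of these genes were already known to be lower, and the study itself names Actc1 and Bmp10 from these libraries. The ureter differences are therefore given as values with no test.

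A sarcomere is the contractile unit of striated muscle. Its thin filaments carry actin and the calcium-sensing troponin complex (subunits T, I and C), and its thick filaments carry myosin heavy chains, myosin light chains and myosin binding protein C. Heart, skeletal muscle and smooth muscle use different genes of the same families, and the muscle coat of the ureter is smooth muscle. Several cardiac forms, among them Actc1, Tnnt2 and Myl4, are also made for a time in skeletal muscle before birth.

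The study asked what loss of Ahnak, a large scaffold protein, does to kidney and ureter. RNA was taken at postnatal day 1 (PN1) from mice in which exon 5 of Ahnak was disrupted (Ahnak KO) and from wild-type (WT) mice. Kidney had 2 libraries of each genotype and ureter 1 of each, and the methods state that 2 to 4 organs were taken for RNA without giving the number for each library. Strain and sex are not in the labels, and the titles of both ureter libraries read kidney while their source field reads Ureter. The methods call the replicates biological, and neither they nor the labels give the litter or animals of each library.

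The libraries held 36410246 to 66095616 estimated counts, the fewest in the Ahnak KO ureter, and 3 counts stood for 0.0454 to 0.0824 CPM (counts scaled to a fixed library total). Ahnak was counted at 148 and 140 CPM in the Ahnak KO kidneys and at 196 and 202 CPM in the WT kidneys. In ureter it was counted at 556 CPM in the library labelled Ahnak KO and at 636 CPM in the WT library, but as FPKM the order was the other way, at 45.5 and 40.6. A count over a whole gene does not show whether exon 5 is intact, so these values do not check the genotype labels. The uroplakins and other ureter markers were higher in ureter for 9 of 10 genes and the kidney markers lower for 10 of 10 genes (edgeR, adjusted p under 0.05). By the same test 21.4% of all genes were higher in ureter and 23.7% lower. Ahnak KO kidney 1 had 176348 counts of Xist and 0 on the Y genes, against 17 to 36 and 8415 to 18055 in the other 5 libraries, and the ribosomal transcript Rn45s took 8.06% of the Ahnak KO ureter counts against 0.496% to 0.632% elsewhere. The part of these differences in the results was not tested, and values without single libraries are given where they change a result.

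Promoter sequence is shown for 4 of the genes, whose levels in ureter were far apart. Each window shown held a CArG box, an M-CAT motif or both, and Actc1 shared its motif with Myl7 alone. The windows of Myl4, Tnni3, Mybpc3, Nppa and Bmp10 and the other windows of Tnnt2 and Myh7 held neither motif. RefSeq gave 12 start windows for the 10 genes on GRCm38.p6, of 250 bases before the start each. The windows of Myh7 overlap each other and were counted apart. A CArG box, the motif bound by serum response factor in muscle genes, was in 2 of the 12 windows and in 1.47% of all 32851 promoter windows of the same length. An M-CAT motif, the letters CATTCC on either strand, bound by TEAD factors, was in 4 of the 12 windows and in 12.6% of all windows. One of these was the window of Myh6, which is not shown. Other motifs searched were the E-box CANNTG, in 9 of the 12 windows and 66.2% of all windows, and TATAAA, in 1 and 7.59%. A MEF2 site was in 1 of the 12 and 2.92% of all windows. The windows are those of Actc1 (chr2:114052876-114053125, minus strand), Tnnt2 (chr1:135836084-135836333, plus strand), Myh7 (chr14:54994627-54994876, minus strand) and Myl7 (chr11:5898783-5899032, minus strand), each written 5′ to 3′ along its gene with CArG boxes and M-CAT motifs in capitals.
Actc1: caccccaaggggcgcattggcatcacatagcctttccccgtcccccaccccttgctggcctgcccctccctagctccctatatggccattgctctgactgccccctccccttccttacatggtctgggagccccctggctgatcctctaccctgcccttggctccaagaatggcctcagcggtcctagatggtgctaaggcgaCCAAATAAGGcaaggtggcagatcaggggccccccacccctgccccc
Tnnt2: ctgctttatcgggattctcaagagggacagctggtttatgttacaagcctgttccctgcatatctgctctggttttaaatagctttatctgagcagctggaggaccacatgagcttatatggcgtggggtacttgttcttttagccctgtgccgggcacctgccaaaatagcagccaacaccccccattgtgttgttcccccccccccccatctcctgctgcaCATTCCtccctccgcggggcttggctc
Myh7: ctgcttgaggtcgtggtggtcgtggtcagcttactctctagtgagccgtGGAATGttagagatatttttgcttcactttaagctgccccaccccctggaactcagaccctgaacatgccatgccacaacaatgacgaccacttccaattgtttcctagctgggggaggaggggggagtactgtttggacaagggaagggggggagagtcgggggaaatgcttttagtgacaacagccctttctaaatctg
Myl7: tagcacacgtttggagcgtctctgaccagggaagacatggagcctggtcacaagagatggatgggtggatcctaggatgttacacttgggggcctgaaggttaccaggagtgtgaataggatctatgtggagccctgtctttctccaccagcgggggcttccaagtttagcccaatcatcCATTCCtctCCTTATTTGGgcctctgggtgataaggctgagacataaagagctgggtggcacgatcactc
The CArG box of Actc1 lay 47 to 38 bases before the start, and that of Myl7 lay 61 to 52 bases before it with an M-CAT motif beside it at 70 to 65 bases. The M-CAT motif of Tnnt2 lay 27 to 22 bases before the start and that of Myh7 201 to 196 bases before it, read on the other strand. None of these motifs overlapped another. Myl7, with both motifs, was among the genes at low level in ureter, as given below. A match to these letters is a description of the window and not a shown binding site.

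Levels of the genes spanned a wide range. In ureter Tnnt2, Actc1, Myl4 and Myh6 were at 5.99 FPKM or more, Tnni3, Myh7 and Myl7 at 3.41 FPKM or less, and Bmp10, Mybpc3 and Nppa at 0.348 FPKM or less. FPKM is the deposited level per transcript length and library size, so it can be compared between genes. In kidney every gene was at 1.75 FPKM or less except Tnni3. In bulk tissue, fewer cells of a type and less RNA per cell cannot be told apart.

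**Figure D1:**
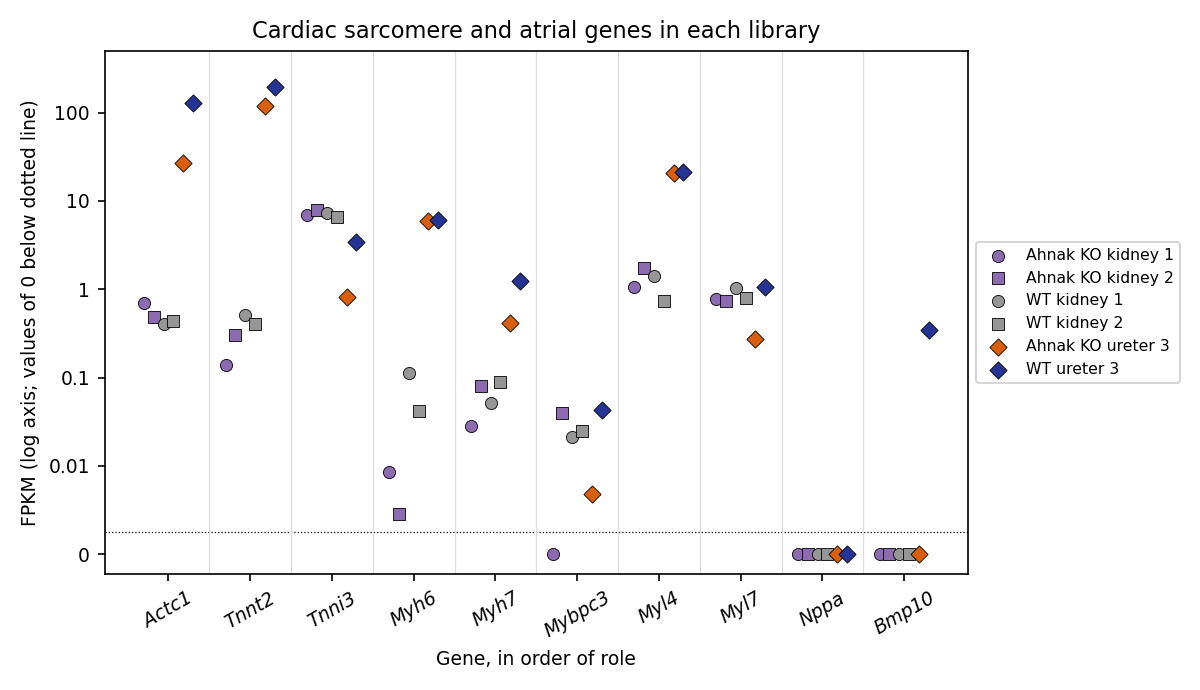
FPKM of the 10 genes (log axis, with values of 0 drawn below the dotted line) in each of the 6 libraries, genes in order of role from thin filament to secreted factors. Diamonds are the ureter libraries and circles and squares the kidney libraries. The ureter diamonds of Actc1, Tnnt2, Myh6, Myh7 and Myl4 lie above all kidney points of the same gene, while those of Tnni3 lie below them.

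Actc1 (gene number 11464, chr2:114047282-114052875), the alpha actin of heart thin filaments, had 1480 counts in the Ahnak KO ureter and 10430 in the WT ureter. Kidneys gave 61 and 41 counts in Ahnak KO and 40 and 37 in WT. Both ureter libraries were far above all kidney libraries, and the WT ureter was far above the Ahnak KO ureter. Scaled by TMM library sizes, the count in the Ahnak KO ureter was 0.246 of that in the WT ureter, with a 95% counting interval of 0.233 to 0.260. Such intervals were exact binomial and cover counting error only. On the log2 scale of CPM + 0.5 the difference was -2.01, and 0.546% of the 16117 genes compared had a lower value. As a level, Actc1 was at 26.9 FPKM in the Ahnak KO ureter and at 127 FPKM in the WT ureter.

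Tnnt2 (gene number 21956, chr1:135836315-135852268), the cardiac form of the troponin subunit that ties the complex to tropomyosin, was the gene with the highest FPKM of the 10 in both ureters. It had 5303 counts in the Ahnak KO ureter and 13014 in the WT ureter. Its kidney counts were 11 and 21 in Ahnak KO and 44 and 29 in WT. The scaled ureter count in Ahnak KO was 0.706 of WT (interval 0.684 to 0.729), nearer to WT than that of Actc1. Tnnt2 reached 117 and 193 FPKM in the Ahnak KO and WT ureters, above 97.8% and 98.6% of all genes in those libraries.

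Tnni3 (gene number 21954, chr7:4518305-4522718), the cardiac form of the inhibitory troponin subunit, showed the opposite tissue pattern. It had 28 counts in the Ahnak KO ureter and 176 in the WT ureter, against 369 and 410 in the Ahnak KO kidneys and 449 and 353 in the WT kidneys. Every ureter value lay below every kidney value, and the scaled count in the Ahnak KO ureter was 0.276 of WT (interval 0.178 to 0.412). Dnaaf3, a dynein assembly gene, overlaps Tnni3 on the same strand by 1297 bases and had a like profile, with 36 and 168 counts in the Ahnak KO and WT ureters and 538 to 683 in kidney. How reads in the overlap were divided between these genes is not given in the sources used here, and its part in the values of Tnni3 was not tested.

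Myh6 (gene number 17888, chr14:54941921-54968017), the alpha myosin heavy chain of atrial and adult mouse heart muscle, had 1370 counts in the Ahnak KO ureter and 2090 in the WT ureter. Kidney libraries held 4 and 2 counts in Ahnak KO and 47 and 15 in WT. The ureters were nearly alike once depth was taken into account, at 5.99 and 6.10 FPKM in Ahnak KO and WT. The ratio of scaled counts was 1.14 (interval 1.06 to 1.22), or 0.18 on the log2 scale of CPM + 0.5, and -0.03 on that of FPKM + 0.5, where the median over all genes also moved from -0.02 to -0.19. Relative to that median Myh6 stayed on the higher side.

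Myh7 (gene number 140781, chr14:54970684-54994626), the beta heavy chain of fetal heart and slow skeletal muscle, lies beside Myh6. It had 94 counts in the Ahnak KO ureter and 426 in the WT ureter, and 11 and 28 in Ahnak KO and 22 and 32 in WT kidneys. The WT ureter was again highest, and the scaled count in the Ahnak KO ureter was 0.382 of WT (interval 0.302 to 0.479). The neighbours thus differed in direction under TMM scaling in ureter, Myh6 slightly higher and Myh7 lower in Ahnak KO. Of the 75-base stretches in GENCODE transcripts of Myh6, 13.7% also occur in Myh7, so some reads of either gene could have been assigned to the other. Mybpc3 (gene number 17868, chr2:91118114-91136516), the cardiac myosin binding protein C, had 1 count in the Ahnak KO ureter and 10 in the WT ureter, a ratio of 0.173 with an interval of 0.00399 to 1.22, which includes equal levels. Its kidney counts were 0 and 10 in Ahnak KO and 6 and 6 in WT, so it was near the detection limit in all 6 libraries.

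Myl4 (gene number 17896, chr11:104546017-104587215), the atrial and embryonic essential light chain, had 689 counts in the Ahnak KO ureter and 1061 in the WT ureter. In kidney it had 55 and 89 counts in Ahnak KO and 85 and 38 in WT. Like Myh6 it was far higher in ureter and nearly alike between the genotypes there, at 20.7 and 21.3 FPKM in Ahnak KO and WT. Its ratio of scaled counts was 1.13 (interval 1.02 to 1.24), or 0.17 as log2 of CPM + 0.5 and -0.04 as log2 of FPKM + 0.5. Myl7 (gene number 17898, chr11:5896637-5898782), the atrial regulatory light chain, had 7 and 36 counts in the Ahnak KO and WT ureters, 27 and 25 in the Ahnak KO kidneys and 41 and 28 in the WT kidneys. It was not higher in ureter than in kidney, and its ureter ratio was 0.337 (interval 0.127 to 0.768). Myl4 thus exceeded Myl7 in FPKM by 76.7-fold in the Ahnak KO ureter and 20.0-fold in the WT ureter, against 0.907 to 2.40-fold in kidney.

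Nppa (gene number 230899, chr4:148000722-148002074), the atrial natriuretic peptide and a leading transcript of atrial muscle, was listed at 0 in all 6 libraries. Bmp10 (gene number 12154, chr6:87428994-87434512), a ligand of the TGF-beta family made by atrial muscle, had 26 counts in the WT ureter and 0 in the other 5 libraries. Set against a limit of 3 counts in the Ahnak KO ureter library, it was at least 5.0-fold lower there than in the WT ureter. With the counting error of the WT count included, the 95% interval of its ratio reached up to 0.264. Neither secreted factor was therefore detected in the Ahnak KO ureter.

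Side by side, the ureter ratios did not share 1 value. Of the 9 genes with at least 10 counts in either ureter library, 7 were lower and 2 higher in Ahnak KO, and 3 were over 2-fold lower on the log2 scale of CPM + 0.5, a size reached by 5.75% of all 16117 genes in that direction. A higher value by the same size was reached by none of the 9 and by 4.50% of all genes. Being lower at all, whatever the size, held for 51.3% of all genes. With Bmp10 at its limit, 4 genes were over 2-fold lower, against 8.07% of all genes treated alike. The median of the 9 was -0.65, beside -0.02 for all genes, whose quartiles were -0.37 and 0.28. Since the genes were chosen with this comparison known, these shares describe the list and are no evidence for it. The interval of Actc1 lay below those of Tnnt2, Myl4 and Myh6 without overlap, where the intervals cover counting error only. With 1 library a genotype, no spread between mice was measured.

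**Figure D2:**
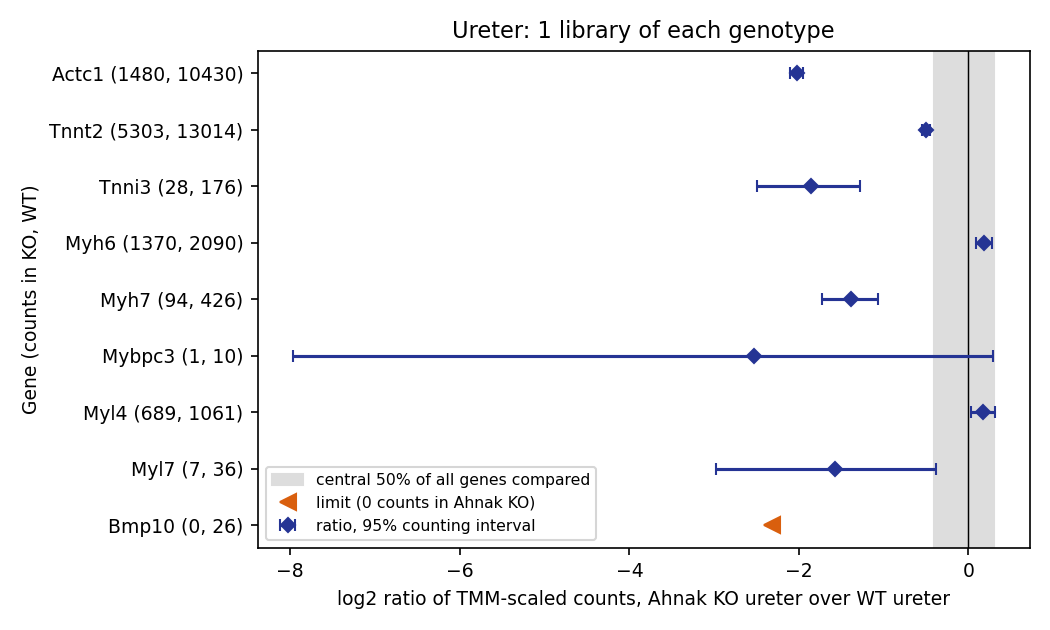
Log2 ratio of TMM-scaled counts, Ahnak KO ureter over WT ureter, for the 9 genes compared, with exact 95% counting intervals, and counts in parentheses (KO, WT). The triangle for Bmp10 is its limit at 3 counts, and the grey band holds the central 50% of 16117 genes, with counts under 3 set to 3. Actc1, Tnni3, Myh7, Myl7, Mybpc3 and Bmp10 lie left of the band, Tnnt2 just left of it, and Myh6 and Myl4 within it. The intervals of Myl7 and Mybpc3 reach into the band, and that of Mybpc3, the lowest point, includes equal levels.

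The weight of single genes in the sum also differed between the ureters. The summed FPKM of the 10 genes was 172.6 in the Ahnak KO ureter, 353.5 in the WT ureter and 9.17 to 11.3 in the kidney libraries. Tnnt2 made up 68.1% of the sum in the Ahnak KO ureter and 54.6% in the WT ureter. Actc1 made up 15.6% and 35.9%, and Myl4 12.0% and 6.03%. The ratio of Actc1 to Tnnt2 in FPKM was 0.229 in the Ahnak KO ureter and 0.657 in the WT ureter, and the ratio of Actc1 to Myh6 was 4.50 and 20.8.

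Ureter and kidney were compared next in all 6 libraries, with genotype as a second term. Its ureter libraries are the pair by which the genes were chosen, so the calls are given as a description with no p, and nothing is read from their share. In ureter 5 of the 8 genes tested were higher than in kidney and 1 was lower, where 45.0% of all 16873 genes passed (21.4% higher, 23.7% lower) by edgeR's quasi-likelihood test with Benjamini-Hochberg adjustment over all genes. On the log2 scale, and with SE for standard error, the fold change of Tnnt2 was 9.07 (SE 0.232), that of Myh6 was 7.73 (SE 0.705) and that of Actc1 was 7.27 (SE 0.560). Myl4 followed with 4.38 (SE 0.325) and Myh7 with 3.83 (SE 0.526). These 5 single genes differed by 14.2-fold for Myh7 up to 539-fold for Tnnt2, and the heart troponin I was not among them.

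Not every gene followed. Tnni3 was lower in ureter, at -1.64 on the log2 scale (SE 0.489), and this call was lost on leaving out any kidney library or the Ahnak KO ureter. The difference was -0.82 without the Ahnak KO ureter and -2.79 without the WT ureter, so its size rested on the Ahnak KO ureter. For Myl7 the log2 fold change was -0.14 (SE 0.742) and for Mybpc3 0.22 (SE 1.59), and neither passed the test. The standard errors (SE) are large enough to leave sizeable changes in either direction undetected. Nppa and Bmp10 did not pass the filter on low counts and were not tested. Both ureter libraries lay above all 4 kidney libraries for 5 of the 10 genes, as for 28.1% of all genes tested, and below them for Tnni3.

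The sizes depended on which ureter was used. Without the WT ureter the log2 fold change of Actc1 was 5.87 and without the Ahnak KO ureter 8.44. Myh6 went the other way, with 9.78 without the WT ureter and 6.46 without the Ahnak KO ureter, and 8.52 without WT kidney 1, which held most of its kidney counts. Myh7 was at 3.26 without the WT ureter. In these fits the lone ureter library was assumed to vary like the rest. All 5 genes stayed higher in ureter without any 1 library, at a log2 fold change of 3.26 or more, which is a description like the calls.

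Kidney was the tissue with 2 libraries a genotype. None of the 7 genes tested there passed edgeR's quasi-likelihood test with Benjamini-Hochberg adjustment, where 0.0121% of 16481 genes did, and none passed the Wald test of DESeq2, where 0.241% of all genes did. At an unadjusted p under 0.05, 1 of the 7 was left in edgeR, against 1.38% of all genes. That gene was Myh6, at 0.00567 ± 0.00394 FPKM (SD, n = 2) in Ahnak KO and 0.0778 ± 0.0501 FPKM (SD, n = 2) in WT kidneys. Ahnak KO stood at -3.13 against WT on the log2 scale (SE 1.04, edgeR adjusted p = 0.9999), and at -2.25 without WT kidney 1. These are counts of 2 to 47 in libraries of 55744703 counts or more, so the level was very low in either genotype.

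The other kidney values did not pass the test, also at an unadjusted p under 0.05. Actc1 was at 0.593 ± 0.159 FPKM (SD, n = 2) in Ahnak KO and 0.420 ± 0.0199 FPKM (SD, n = 2) in WT kidneys, or 0.54 on the log2 scale of the fit (SE 0.592, edgeR adjusted p = 0.9999). Its sign was opposite to that in ureter. Tnnt2 was at 0.220 ± 0.113 FPKM (SD, n = 2) in Ahnak KO and 0.457 ± 0.0716 FPKM (SD, n = 2) in WT, or -1.02 on the log2 scale of the fit (SE 0.776). The log2 fold change of Myl4 was 0.41, that of Tnni3 0.11, that of Myl7 -0.25 and that of Myh7 -0.34, with SE of 0.586, 0.222, 0.681 and 0.851. The Ahnak KO and WT kidney libraries did not overlap for Actc1, which was higher in Ahnak KO, nor for Myh6, Myl7 and Tnnt2, which were lower, as was so in either direction for 26.1% of all genes.

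**Figure D3:**
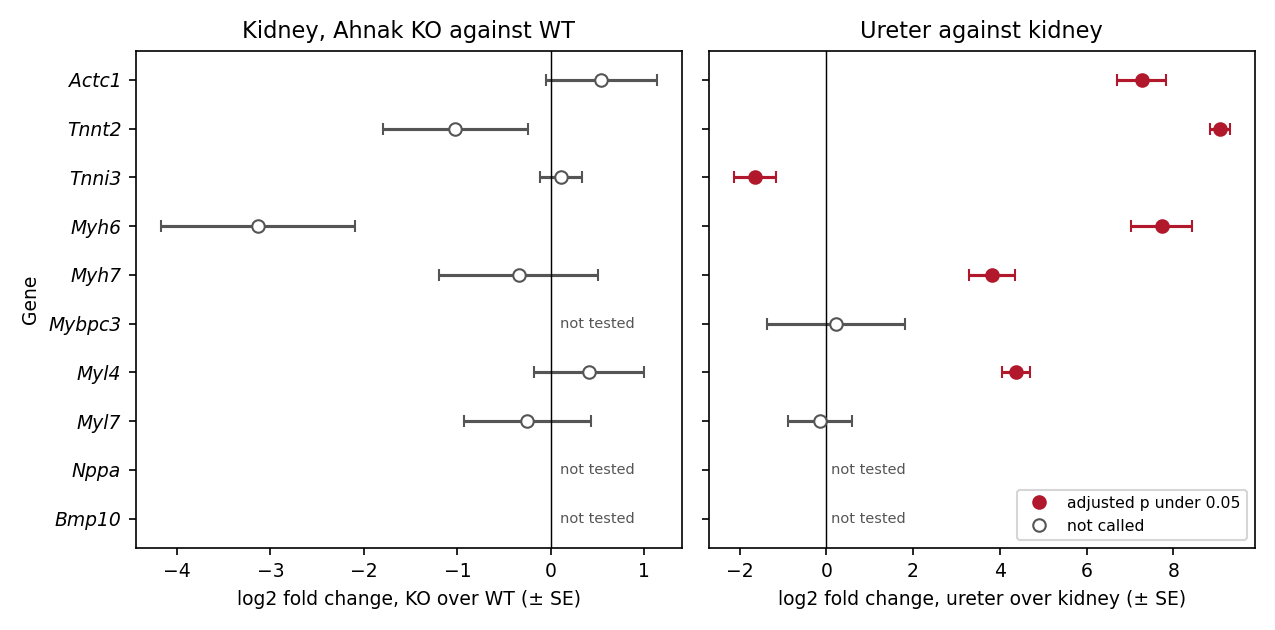
Log2 fold changes with standard errors from edgeR for Ahnak KO against WT kidney (left, 4 libraries) and ureter against kidney (right, 6 libraries). Filled red points had an adjusted p under 0.05 and open points did not. No gene was called in kidney, and Actc1, Tnnt2, Myh6, Myh7, Myl4 and Tnni3 were called between the tissues, Tnni3 lower in ureter.

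Within each protein family the cardiac form was not always the main form. Tnnt2 made up 75.9% and 74.6% of the summed FPKM of the troponin T genes in the Ahnak KO and WT ureters and 1.11% to 3.59% in kidney, where slow skeletal Tnnt1 led. Among troponin I genes it was the fast skeletal Tnni2 that led in ureter, with 95.1% in Ahnak KO and 90.9% in WT, and Tnni3 held 4.86% and 8.29%. Fast skeletal Tnnc2 held 66.3% and 75.3% of the troponin C FPKM in the Ahnak KO and WT ureters, and Tnnc1, the form of heart and slow muscle, the rest. The ureter libraries therefore held a cardiac troponin T beside mostly fast skeletal troponin I and C.

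Myosin showed a similar mixture. Myh6 made up 91.8% of the FPKM of 8 sarcomeric heavy chain genes in the Ahnak KO ureter and 67.5% in the WT ureter, where Myh7, Myh8 and Myh3 held 13.8%, 11.7% and 6.99%. Myl4 made up 89.8% of the FPKM of 6 striated light chain genes in the Ahnak KO ureter and 50.05% in the WT ureter, where the skeletal forms Mylpf and Myl1 held 26.1% and 19.2%. Ventricular Myl2 had 0 and 34 counts in the Ahnak KO and WT ureters, and Myl3 was listed at 0 in both. Actc1 made up 67.0% and 77.0% of the striated alpha actins in the Ahnak KO and WT ureters, with skeletal Acta1 as the rest, but only 2.15% and 6.74% once the smooth muscle actins Acta2 and Actg2 were added. Acta2 stood at 838 and 1208 FPKM.

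**Figure D4:**
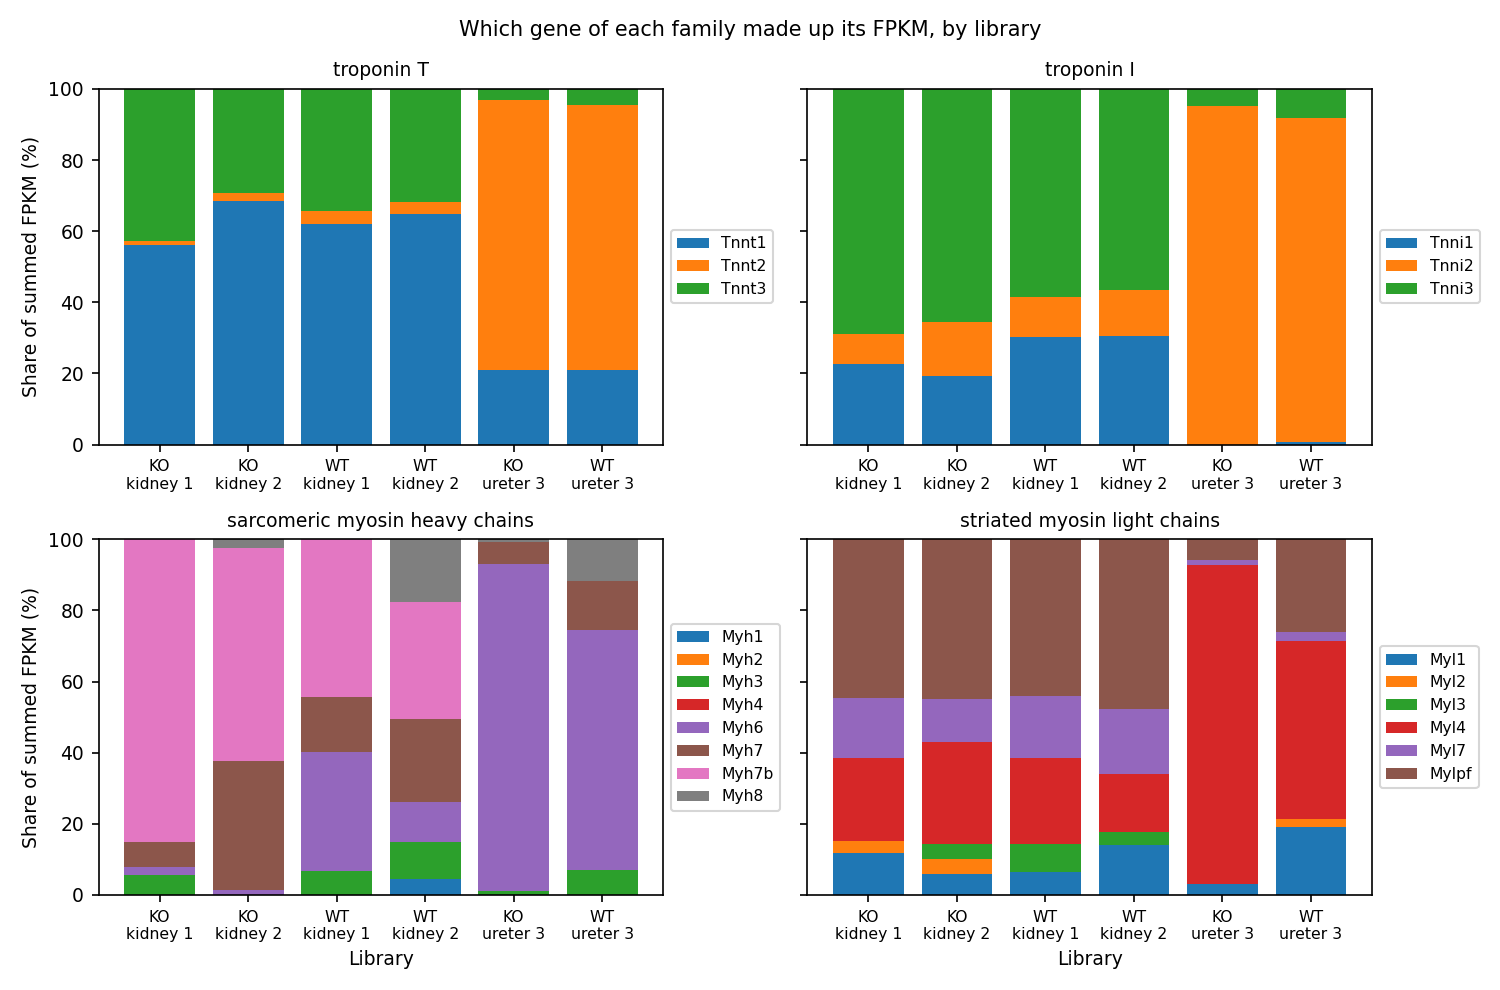
Share of each gene in the summed FPKM of its family (percent) in each library, for troponin T, troponin I, sarcomeric myosin heavy chains and striated myosin light chains. Tnnt2, Tnni2, Myh6 and Myl4 take the largest shares in both ureter libraries, and the skeletal Myh8, Myl1 and Mylpf take more of the WT ureter than of the Ahnak KO ureter.

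Further genes of heart muscle were taken from a list of 30. Of 23 tested, 9 were higher and 5 lower in ureter than in kidney by edgeR's quasi-likelihood test with Benjamini-Hochberg adjustment, and 9 did not pass, where 21.4% of all genes were higher and 23.7% lower. Tpm1, a tropomyosin shared by all muscle types, was at 443 and 678 FPKM in the Ahnak KO and WT ureters and 246 to 285 FPKM in kidney. Gja5, the connexin 40 of atrial and vessel cells, was at 10.9 and 16.9 FPKM against 5.13 to 7.07 FPKM, and Myom1, a protein of the sarcomere's M line, at 6.74 and 12.9 FPKM against 1.26 to 1.58 FPKM. Of the 30 genes, 8 were listed at 0 in both ureters, namely Myl3, Myh7b, Pln, Nppb, Tcap, Lmod2, Trdn and Ckmt2. In the ureter comparison, where 51.3% of all genes were lower, 20 of 22 were lower and 2 higher in Ahnak KO, with a median log2 ratio of -0.73, or -1.23 with genes at 0 set to their limit, beside -0.02 for all genes. Sln, sarcolipin, and Myoz2, named after their values were seen, had 83 and 57 counts in the WT ureter and 0 in the other 5 libraries, the same distribution as Bmp10. The skeletal muscle genes Myoz1 and Mybpc1 also had 0 counts in the Ahnak KO ureter. They had 85 and 183 in the WT ureter and were counted in every kidney library.

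Regulators of heart muscle were the next list. The transcription factors Nkx2-5, Tbx5 and Tbx20 were listed at 0 in all 6 libraries. Others were detected in ureter, and these are named after their values were seen. Gata6 had 1670 and 3083 counts in the Ahnak KO and WT ureters and 482 to 1127 in kidney. Myocd had 1420 and 1700 in the ureters, a log2 ratio of 0.53, and 94 to 124 in kidney. Gata5 had 196 and 894 in the ureters, a log2 ratio of -1.32, and 81 to 227 in kidney. Isl1, Gata4 and Hand2 were at low counts. Isl1 had 56 and 67 counts in the Ahnak KO and WT ureters and 0 in kidney, Gata4 had 10 and 13 in the ureters and 0 to 2 in kidney, and Hand2 had 36 in the Ahnak KO ureter and 0 elsewhere. Of 15 regulators tested between the tissues, 8 were higher and 3 lower in ureter by edgeR and 4 did not pass, beside 21.4% and 23.7% of all genes. Nr2f2, a nuclear receptor of atrial and venous cells, had the highest FPKM and was lower in ureter, at 32.3 and 42.2 FPKM in Ahnak KO and WT against 80.5 to 98.8 FPKM in kidney. Tbx18, a marker of ureter mesenchyme, was at 18.5 and 27.6 FPKM in the Ahnak KO and WT ureters and 0.666 to 0.756 FPKM in kidney. Mef2a was at 5.47 FPKM in the Ahnak KO ureter and 25.9 FPKM in the WT ureter, with 23.5 to 30.5 FPKM in kidney. In the ureter comparison 11 of 16 regulators were lower and 5 higher in Ahnak KO, with a median log2 ratio of -0.32, beside 51.3% of all genes lower.

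Skeletal and smooth muscle genes were measured in the same libraries as markers of other muscle. The summed FPKM of 29 skeletal muscle genes was 134 in the Ahnak KO ureter, 252 in the WT ureter and 23.7 to 29.5 in kidney. It was led by Ckm, muscle creatine kinase, at 42.2 and 57.2 FPKM and Tnnt1 at 32.3 and 54.2 FPKM in the Ahnak KO and WT ureters. Acta1 followed in the WT ureter at 37.9 FPKM, close to Tnni2 at 37.4 FPKM, and in the Ahnak KO ureter Tnni2 at 15.9 FPKM came before Acta1 at 13.3 FPKM. The myogenic factors Myod1, Myf5 and Pax7 and the fast heavy chains Myh2 and Myh4 were listed at 0 in all 6 libraries. Of the other myogenic factors, named after their values were seen, Myog had 6 counts each in the WT ureter and Ahnak KO kidney 1, and Myf6 had 3 in Ahnak KO kidney 2, with 0 elsewhere. Of 18 skeletal genes compared in ureter, 17 were lower and 1 higher in Ahnak KO, where 51.3% of all genes were lower. Their median log2 ratio was -0.99. Between the tissues 11 of 18 skeletal genes were higher and 1 lower in ureter by edgeR, where 21.4% of all genes were higher and 23.7% lower. The part of skeletal muscle genes in the values of Actc1, Myh7 and the other genes was not tested.

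Smooth muscle genes were far more abundant, with a summed FPKM of 4222 in the Ahnak KO ureter and 5458 in the WT ureter against 780 to 890 in kidney. They were led by Acta2, Myl9 at 812 and 1148 FPKM and Tagln at 640.4 and 820.3 FPKM in the Ahnak KO and WT ureters. Of 20 genes, 17 were higher and 1 lower in ureter than in kidney by edgeR, beside 21.4% and 23.7% of all genes. In the ureter comparison, where 51.3% of all genes were lower, 17 of 20 were lower and 3 higher in Ahnak KO. Their median log2 ratio was -0.29. The ratio of Actc1 to Acta2 in FPKM was 0.0321 in the Ahnak KO ureter and 0.105 in the WT ureter, so Actc1 stood lower also beside the main smooth muscle actin. In kidney no gene of the other cardiac, regulator, skeletal or smooth muscle lists passed edgeR's test of Ahnak KO against WT or the Wald test of DESeq2. At an unadjusted p under 0.05 in edgeR 1 of 21, 0 of 13, 0 of 16 and 0 of 20 did, against 1.38% of all genes. Blood and endothelial genes had a median ureter log2 ratio of -0.11. In Ahnak KO 7 of 10 were lower and 3 higher, beside 51.3% of all genes lower. The haemoglobin genes within this list were far apart. Hbb-bs had 1 and 39267 counts and Hba-a2 8 and 27114 in the Ahnak KO and WT ureters, while Hbb-bt had 5133 and 66 and Hba-a1 14345 and 4521. These are near-identical pairs between which reads may have been split differently in each library. Alas2, another blood gene of the list, had 270 and 1068 counts in the Ahnak KO and WT ureters, a log2 ratio of -1.14. The endothelial genes ran from -0.28 for Tie1 to 0.35 for Emcn. Whether the ureters differed in blood content, and its part in the values of the heart genes, was not tested.

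Over the 6 libraries, the genes with the highest correlation with Actc1 were not among the heart genes listed here. Among 14677 genes with at least 100 counts in any library, Pearson's r with Actc1 of log2 CPM + 0.5 was highest for Anxa9 (0.9998), Pdpk1 (0.999), Rapgefl1 (0.999), Lypd8 (0.999) and Agmo (0.998). Tnnt2 had r = 0.983, Myh7 0.980, Myl4 0.966, Myh6 0.964 and Tnni3 -0.75, at ranks 300, 391, 841, 886 and 10347. The size of a difference does not enter r. Pdpk1 had 2394 and 4617 counts in the Ahnak KO and WT ureters and 3719 to 4487 in kidney. The 6 points are 4 kidney and 2 ureter libraries, and they fall into a kidney group and 2 separate ureter values, so r is given as a description only.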

How the data were processed

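Bulk RNA-seq was measured in 6 mouse libraries, and the authors deposited for each of 24532 genes an estimated count given as a whole number, FPKM and TPM. The submitters' processing notes name Trimmomatic 0.38, HISAT2 2.1.0 and StringTie 1.3.4b with mm10, while the methods of the study name Cutadapt, STAR and Cufflinks with a later mouse build, and which of these made the table is not given in the sources used here. The libraries were prepared as stranded mRNA. The tests had been designed for read counts and were run on the deposited estimated counts, which are not normalized. The deposited FPKM and TPM were normalized by the authors for transcript length and library size.

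Counts of the kidney libraries (genotype as the only term) and of all 6 libraries (genotype and tissue) were fitted with edgeR 4.0.16 in R 4.3.3, using TMM factors, filterByExpr, the quasi-likelihood test and Benjamini-Hochberg adjustment over all genes. Standard errors were approximated from each fold change and its F statistic. The 1 ureter library of each genotype were compared by log2 of CPM + 0.5 with TMM factors over genes with at least 10 counts in either, with exact 95% binomial intervals. A gene at 0 was set to 3 counts for a limit. The fits were tested on simulated counts. Alternatives used DESeq2 1.42.0 (Wald test, size factors), limma 3.58.1 on log2(FPKM + 1), no filter, other fits, scalings, pseudocounts and units, and each library left out. A crossed replicate block and a fit of the 4 libraries that share numbers in their column names were chosen after seeing the data.

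The genes, the marker lists and the comparisons were chosen with earlier results of these data known. Genes named are all 10 genes, up to 3 of each list with the highest FPKM in either ureter, those at 0 in all libraries, the relatives of the 10 genes, and the 5 genes with the highest correlation with Actc1. Other genes were named after their values were seen. Positions and promoters are from RefSeq (GRCm38.p6), which matched all 10 genes, and shared 75-base stretches from GENCODE M21 transcripts. No protein sequence was used here. Ratios, intervals and motif searches were run in Python 3.11.15 (pandas 2.3.3, scipy 1.17.1). Series totals run from 36410246 to 66095616 counts a library, which limits what can be seen of genes at a few counts.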

Additional observations from a re-analysis of the deposited data

Results flagged for a closer look

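The genotype difference of Actc1 had opposite signs in kidney and ureter, but the kidney log2 fold change of 0.54 was smaller than its SE of 0.592. Both Ahnak KO kidney libraries lay above both WT kidney libraries, at 61 and 41 counts against 40 and 37, while in ureter the Ahnak KO library was lower, with a log2 ratio of -2.01. Myh6 did the reverse, with both Ahnak KO kidney libraries below both WT kidney libraries, at 4 and 2 counts against 47 and 15, and a ureter log2 ratio of 0.18, which changes sign with the scaling. Neither difference between tissues was tested, since ureter has 1 library of each genotype, and neither gene passed the test in kidney. The Ahnak KO and WT kidney libraries did not overlap for 26.1% of all genes either.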

How the results depend on the processing

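In ureter, the number of genes over 2-fold between the genotypes went from 3 to 6 with log2(CPM + 0.1) and to 5 with log2(TPM + 0.5), all of them lower in Ahnak KO. It was 3 under the other scalings and units, and 3 of 6 compared with at least 50 counts, but with log2(FPKM + 0.5) Myh7 dropped out at -0.94 and Myl7 came in at -1.02. Myh6 and Myl4 turned from higher to lower at -0.014 and -0.027 with library size alone, -0.025 and -0.040 with log2(FPKM + 0.5) and -0.0082 and -0.022 with log2(TPM + 0.5), where the median of all genes also fell, to -0.20, -0.19 and -0.19. With single libraries left out, the kidney log2 fold change of Myh7 ran from -1.19 to 0.19, turning higher without Ahnak KO replicate 1 or WT replicate 2, and that of Myl4 from -0.0072, without Ahnak KO replicate 2, to 0.95. Between the tissues that of Myl7 ran from -0.88 to 0.43, turning higher without the Ahnak KO ureter, and that of Mybpc3 from -1.27 to 1.08, turning lower without the WT ureter or WT kidney replicate 1. With each library left out in turn, Actc1, Tnnt2, Myh6, Myh7 and Myl4 stayed higher in ureter than in kidney, at a log2 fold change of 3.26 or more.

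The replicate numbers in the kidney titles were not used as pairs in the main fit, since nothing says what they mark. The differences of replicate 1 minus replicate 2 were weakly and negatively correlated between Ahnak KO and WT (r = -0.193 over 16481 genes). With 1 such difference a genotype, this cannot settle whether the numbers pair the libraries. With the replicate block in edgeR, 0 of the 7 genes and 0 of all genes were called, against 0 and 2 without it, and the crossed pairing called 0 and 1. Pairing the 4 libraries that share column numbers between kidney and ureter called 5 genes and lost Tnni3 (adjusted p = 0.109 in edgeR).

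All genes called in kidney went from 2 in edgeR to 46 with the Wald test of DESeq2, 0 with limma, and 3 to 87 with a library left out, none of them among the 7. Each ureter ratio rests on 1 library a genotype, and Mybpc3, Myl7, Bmp10 and Nppa on few or no counts.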
